A study of Homo sapiens with 37 samples.

Results

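The cap-binding protein eIF4E was fused to APEX, a peroxidase that attaches biotin-phenol to RNA in its vicinity, and expressed in HEK293T, a line derived from human embryonic kidney. The comparison described here sets RNA recovered on streptavidin beads from cells with this fusion (pulldown) against RNA of cells with the same fusion (input), in unstressed cells. Its members are 4 libraries, 2 inputs and 2 pulldowns labelled APEX-eIF4E, of 37 in the series. They were chosen by the names of their count columns. The other unstressed libraries, 2 inputs and 2 pulldowns each, carried APEX-eIF4A (the RNA helicase of the same complex), APEX-GFP (a fluorescent protein), C1-APEX or APEX-CBX1 (CBX1 is a chromatin protein). Every group received 500 µM biotin-phenol for 30 min and then 1 mM H2O2 for 1 min, RNA was isolated with TRIzol, and biotinylated RNA was then enriched on the beads. The labels do not say how the fusions were expressed or whether replicates were separate cultures. Hence p-values measure only how these libraries vary, and that variation may be technical. Cells without APEX or without H2O2 were not analysed here.

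As background, eIF4E recognises the 7-methylguanosine cap at the start of mRNAs made by RNA polymerase II. With the scaffold eIF4G and the helicase eIF4A it forms eIF4F, which brings the small ribosomal subunit to the mRNA, and 4E-BP proteins compete with eIF4G for it. Many small non-coding RNAs, ribosomal RNAs and mitochondrial transcripts do not carry this cap. Proximity labelling reports RNA near the fusion and not RNA bound by it. The deposited table identifies RNAs by Ensembl gene ID without names, and of 60483 IDs 0 could be paired with a symbol. RNAs are therefore described by level, direction and behaviour across libraries, and only 4 are given by ID. The label of the bait and the cell line could not be checked against transcripts for the same reason.

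The 2 inputs held 1486613 and 2149612 counts and the 2 pulldowns 2095260 and 2450609. A handful of RNAs took most of these counts and lost share in the pulldown. The 4 highest IDs of the table took 62.7% and 64.6% of counts in the inputs, and 48.6% and 46.0% in the pulldowns. The groups did not overlap (63.6% ± 1.36 against 47.3% ± 1.82; SD, n = 2 each). Each of these 4 IDs took between 15% and 17% of input counts. Whether they are copies that share reads could not be checked, so their separate values are uncertain. The 10 highest IDs took 74.1% ± 1.55 of input and 56.9% ± 1.90 of pulldown counts (SD, n = 2). For APEX-eIF4A the same shares were 74.6% ± 0.98 and 59.7% ± 3.05, and for APEX-GFP 69.1% ± 0.60 and 63.9% ± 1.92 (SD, n = 2). Outside those 10 IDs the eIF4E inputs held 401935 and 534011 counts and the pulldowns 874556 and 1088771, so most RNAs were read more deeply in the pulldown.

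**Figure D1:**
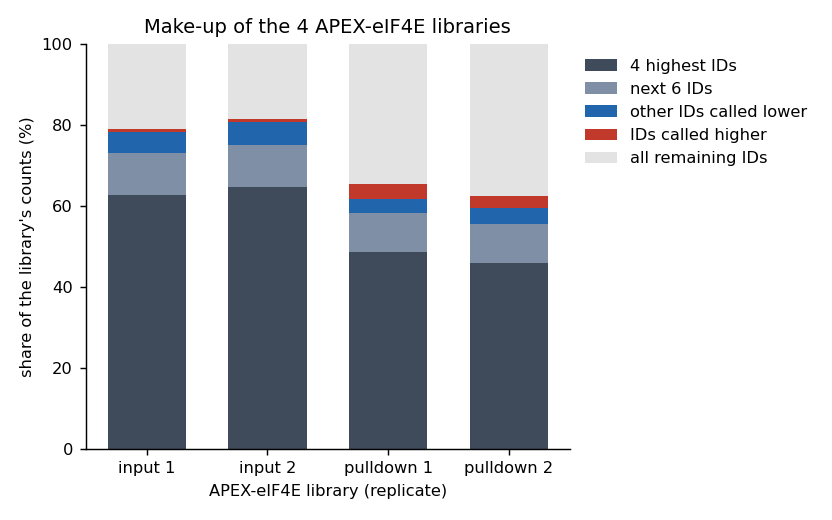
Stacked bars give the share of counts (%) in each of the 4 APEX-eIF4E libraries taken by the 4 highest IDs, the next 6, other IDs called lower in the pulldown, IDs called higher, and the rest. The highest 4 IDs fall from 62.7% and 64.6% in the inputs to 48.6% and 46.0% in the pulldowns, while the red segment of higher IDs widens.

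The first comparison asked which RNAs were higher or lower in the eIF4E pulldown than in its input. Of 12427 tested IDs, 312 passed an edgeR adjusted p under 0.05 (2.51%). Of these, 152 were higher in the pulldown (1.22% of tested IDs) and 160 lower (1.29%). All 10 of the highest IDs were among the lower ones, with log2 fold changes from -1.41 to -0.66 (edgeR adjusted p at most 0.0453). These values are relative to the TMM reference (a scaling that takes most RNAs as unchanged). With plain library size the median log2 fold change of all tested IDs went from 0.02 to 0.89, and 98.6% of calls were higher, against 48.7% with TMM. Under that scaling all 152 higher IDs were called higher again. Of the 160 lower IDs, 61 were called lower, 127 had a log2 fold change below 0 and 33 lay above 0.

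Which direction had the larger changes depended on the scaling. With library size the 152 higher IDs had a median log2 fold change of 1.82 and the 160 lower IDs one of -0.45, the opposite order to that with TMM, on which the values below are given. The median log2 fold change of the lower IDs was -1.33, with quartiles of -2.21 and -0.94 and an extreme of -5.51. That of the higher IDs was 0.95, with quartiles of 0.76 and 1.18 and a highest value of 7.13. Among the lower IDs 114 of 160 fell more than 2-fold, 48 more than 4-fold and 27 more than 8-fold. Among the higher IDs 65 of 152 rose more than 2-fold, 3 more than 4-fold and 2 more than 8-fold. The higher IDs had a median of 40.7 CPM (the count relative to the TMM-scaled library total, not divided by RNA length) in inputs and 81.1 CPM in pulldowns. The lower IDs reached from 5.54 to 222530 CPM in inputs, with a median of 86.3 CPM, and had a median of 34.7 CPM in pulldowns. As a share of all counts, the higher IDs went from 0.90% ± 0.09 in inputs to 3.28% ± 0.31 in pulldowns. The lower IDs outside the 10 highest went from 5.36% ± 0.25 to 3.72% ± 0.22 (SD, n = 2). These shares describe IDs picked for the same difference and are not a test of it.

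Calls were concentrated among IDs with many counts. Of 94 IDs with a mean level over 8 log2 CPM, 14 were higher and 29 lower (45.7% called), and their median log2 fold change was -0.21. Of 685 IDs between 6 and 8 log2 CPM, 62 were higher and 49 lower (16.2%), around a median of 0.03. Between 4 and 6 log2 CPM, 70 of 4183 IDs were higher and 56 lower (3.01%). Under 4 log2 CPM only 6 of 7465 were higher and 26 lower (0.429%). The median standard error of the log2 fold change grew from 0.14 in the highest class to 0.59 in the lowest. A 2-fold difference was therefore not detectable for most IDs with few counts: 1243 IDs lay beyond 2-fold without a call, at a median level of 2.30 log2 CPM, against 5.98 for called IDs. In 5674 IDs (45.7% of those tested) the 2 pulldowns did not overlap the 2 inputs, 2985 above and 2689 below, while 2.51% were called. With 2 libraries per group such separation is also frequent where nothing differs, so the 5674 are not a count of differences. All 312 called IDs were among those without overlap. A call from so few libraries nearly requires this, so it adds no support.

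**Figure D2:**
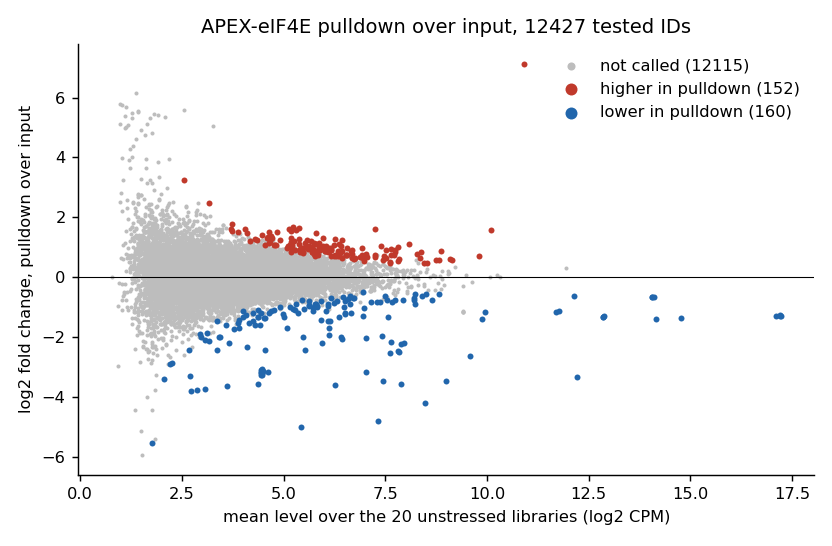
Each point is 1 of the 12427 tested IDs, placed by its mean level over the 20 unstressed libraries (log2 CPM) and by its log2 fold change in the APEX-eIF4E pulldown over input. The 152 higher IDs (red) lie mostly near the band of uncalled IDs, whereas the 160 lower IDs (blue) reach down to -5.51 and include the IDs with most counts at the right.

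Leaving out a library lowered the count of called IDs in 3 of 4 cases. The count was 166 without input replicate 1, 99 without input replicate 2 and 116 without pulldown replicate 1, of which 159, 96 and 114 were among the 312. Without pulldown replicate 2 it was 401, of which 258 were among them. These 4 fits tested 13884 to 14109 IDs, against 12427 in the main fit. Every one of the 312 kept its direction in them. That was all but fixed beforehand, because in all 312 the 2 pulldowns did not overlap the 2 inputs.

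ENSG00000245848.2 had the largest increase of IDs averaging at least 8 CPM in these libraries. It measured 22.9 and 13.3 CPM in the inputs, from 27 and 20 counts, and 4235 and 744 CPM in the pulldowns. Both pulldowns lay far above both inputs, but they differed from each other by more than the inputs did. The log2 fold change was 7.13 ± 1.04 (SE; edgeR adjusted p = 0.00377). It was 5.40 without pulldown replicate 1 and 7.91 without pulldown replicate 2, and the call was lost without input replicate 1 (edgeR adjusted p = 0.0553), without input replicate 2 (0.0984) and with only the 4 libraries fitted (0.265). The same ID was high in every other pulldown: 911 and 1115 CPM with eIF4A, 2446 and 3181 with GFP, 16527 and 4579 with C1 and 3007 and 1622 with CBX1. The inputs of those constructs measured 10.5 to 17 CPM. The eIF4E increase differed from that of GFP by -0.67 (95% interval -4.11 to 2.77) and from that of eIF4A by 0.95 (-2.67 to 4.56) on the log2 scale, so differences of several fold in either direction were not detectable.

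ENSG00000204054.10 came next and rested on few counts. Its inputs measured 2.54 and 3.33 CPM, from 3 and 5 counts, and its pulldowns 26.5 and 7.81 CPM, from 72 and 27 counts. Pulldown replicate 1 carried most of the rise. The log2 fold change was 2.48 ± 0.68 (SE; edgeR adjusted p = 0.0444). It fell to 1.39 without pulldown replicate 1 (edgeR adjusted p = 0.828) and rose to 3.13 without pulldown replicate 2. The call was also lost without input replicate 1 (0.336) or 2 (0.338) and with a replicate block (0.0609). With the other constructs its log2 fold change lay between -0.12 and 0.73 and was not called (edgeR adjusted p = 0.503 to 0.953). The difference from GFP was 2.29 (95% interval 0.30 to 4.27; edgeR adjusted p = 0.99986), so it did not pass correction.

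ENSG00000200312.1 had the largest decrease by the same rule. The inputs measured 86.4 and 184 CPM and the pulldowns 3.31 and 4.92 CPM, from 9 and 17 counts. Inputs and pulldowns were far apart, although the inputs themselves differed by more than 2-fold. The log2 fold change was -5.01 ± 0.35 (SE; edgeR adjusted p = 7.23e-11), and -4.33 without input replicate 2. Pulldowns of the other constructs measured 2.43 to 18.2 CPM and their inputs 55.0 to 88.0 CPM, so the highest input of all was the second of eIF4E. The log2 difference of the eIF4E fold change from that of GFP was -1.34 (95% interval for this ID alone -2.61 to -0.08) and from that of eIF4A -1.18 (-2.27 to -0.09). Neither passed correction over all IDs (edgeR adjusted p = 0.99986 and 0.99997).

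ENSG00000200488.1 fell likewise, on more counts. It measured 335 and 517 CPM in the inputs and 12.5 and 17.7 CPM in the pulldowns. The log2 fold change was -4.80 ± 0.29 (SE; edgeR adjusted p = 5.27e-12), and the call held in every alternative run. With the other constructs the fold change ran from -2.03 for CBX1 to -4.08 for eIF4A. Its counts were 3.88 and 2.81 times those of ENSG00000200312.1 in the inputs and 3.78 and 3.59 times in the pulldowns. Whether the pair shares reads was not tested, so the separate values are uncertain.

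**Figure D3:**
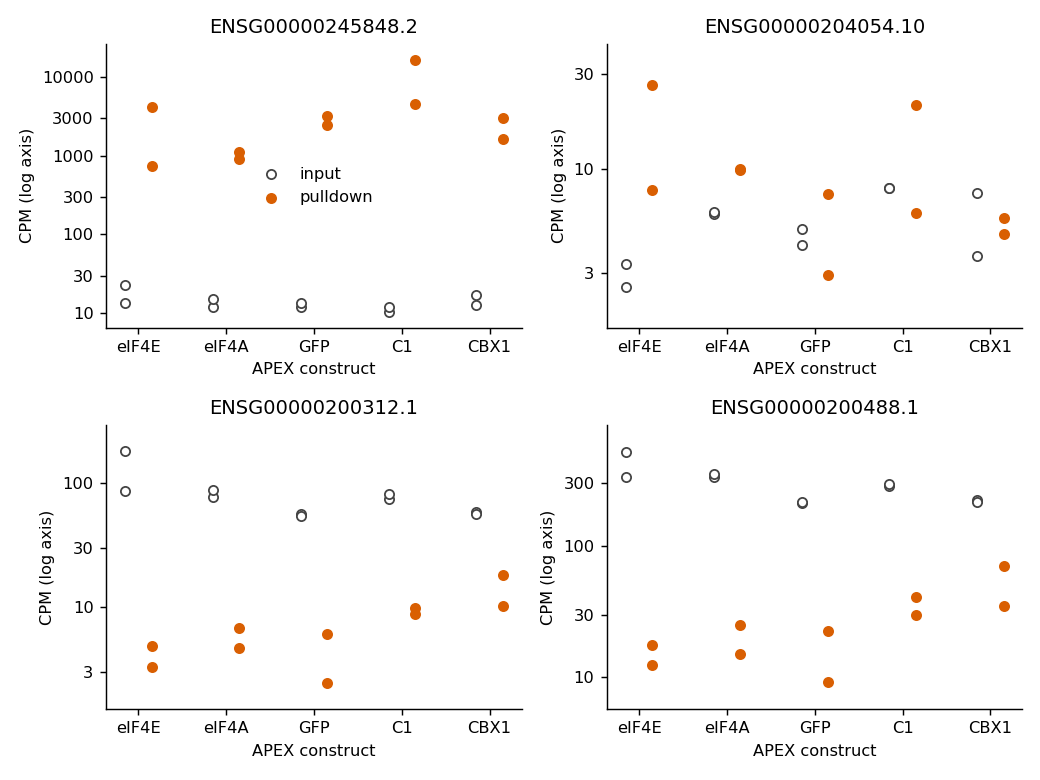
The 4 panels plot CPM (log axis) of the 4 IDs in all 20 unstressed libraries, by APEX construct, with open circles for inputs and filled circles for pulldowns. The first ID is high in the pulldown of each construct, the second is clear of its input in eIF4E and eIF4A only, and both IDs of the lower row are low in every pulldown.

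The 2 eIF4E pulldowns differed in how far they lay from the inputs. Over 7736 IDs averaging at least 8 CPM in the 4 libraries, pulldown replicate 1 differed from input replicates 1 and 2 by more than 2-fold in 13.1% and 12.1% of IDs. Pulldown replicate 2 did so in 6.04% and 4.67%. The inputs differed from each other in 3.80% and the pulldowns in 4.27%. Over 774 IDs averaging at least 64 CPM, where counting error is smaller, the share was 10.6% and 13% for pulldown replicate 1 and 5.81% and 6.98% for pulldown replicate 2, against input replicates 1 and 2. It was 0.129% between inputs and 0.517% between pulldowns. Pulldown replicate 1 was the further from either input at both levels, whereas which input was the closer changed between them. The log2 CPM of the pulldowns correlated at 0.975 over the 774 IDs and that of the inputs at 0.988, against 0.825 to 0.896 between a pulldown and an input (IDs are not independent replicates). Over the 7736 IDs the values were 0.925 for pulldowns, 0.931 for inputs and 0.840 to 0.904 between a pulldown and an input. The gap was smallest there for pulldown replicate 2, at 0.899 and 0.904 with input replicates 1 and 2.

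Most called IDs also lay further from the inputs in pulldown replicate 1. Of the 152 higher IDs, 124 were higher in pulldown replicate 1 than in replicate 2, and of the 160 lower IDs 118 were lower there. The median log2(CPM + 1) of the higher IDs lay 1.02 above the mean input in pulldown replicate 1 and 0.83 above it in replicate 2. For the lower IDs it lay at -1.50 and -1.16. Only 3 of the higher and 14 of the lower IDs differed by more than 2-fold between the pulldowns.

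**Figure D4:**
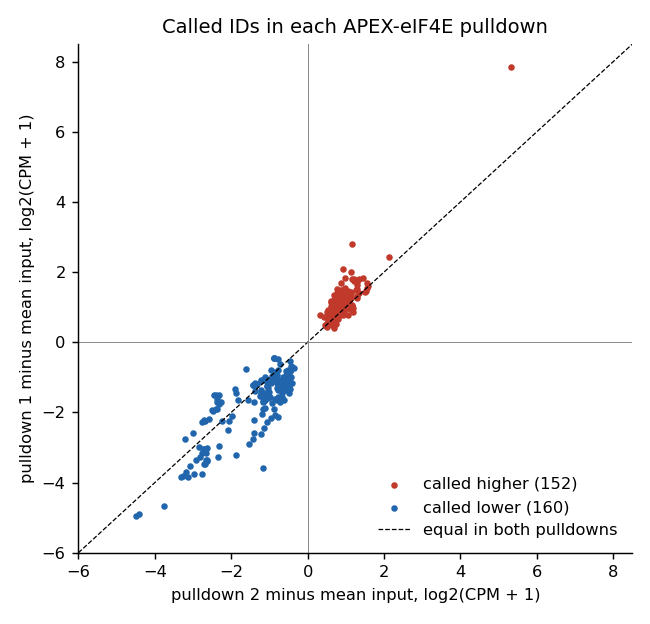
Each point is a called ID, placed by its log2(CPM + 1) in pulldown replicate 2 (horizontal) and replicate 1 (vertical) minus the mean of the 2 inputs; the dashed line marks equal values. Of the higher IDs (red), 124 of 152 lie above the line, and of the lower IDs (blue), 118 of 160 lie below it.

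The next question was whether IDs that moved with eIF4E moved with other fusions, whose inputs and pulldowns were separate libraries. Over all 12427 tested IDs the median log2 fold change was 0.02 for eIF4A, 0 for GFP, 0.009 for C1 and 0.02 for CBX1. Of the 152 higher IDs, the log2 fold change was above 0 in 151 for eIF4A, 149 for GFP, 149 for C1 and 133 for CBX1. They were called higher in 97 cases for GFP (63.8% of the 152 and 40.1% of GFP's own calls), where 1.95% of tested IDs were called higher. For eIF4A the number was 77 (50.7% and 53.5%, background 1.16%), for C1 63 (41.4% and 17.5%, background 2.89%) and for CBX1 25 (16.4% and 12.6%, background 1.6%). None of them was called lower with another construct. The median log2 fold change of the 152 was 0.95 with eIF4E, 0.82 with GFP, 0.75 with eIF4A, 0.61 with C1 and 0.34 with CBX1. The eIF4E value is the one that picked the IDs.

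Of the 160 lower IDs, 160 lay below 0 for eIF4A, 154 for GFP, 146 for C1 and 137 for CBX1. For eIF4A 99 were called lower (61.9% of the 160 and 78.0% of eIF4A's calls), where 1.02% of tested IDs were called lower. For GFP it was 93 (58.1% and 35.8%, background 2.09%), for CBX1 85 (53.1% and 29.6%, background 2.31%) and for C1 75 (46.9% and 16.9%, background 3.56%). A single ID was called higher with CBX1 and lower with eIF4E. The median of the 160 was -1.33 with eIF4E, -0.98 with GFP, -0.96 with eIF4A, -0.91 with CBX1 and -0.85 with C1. All 5 tests used 1 estimate of spread per ID and IDs with many counts are easier to call; how much of the sharing comes with that was not tested.

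**Figure D5:**
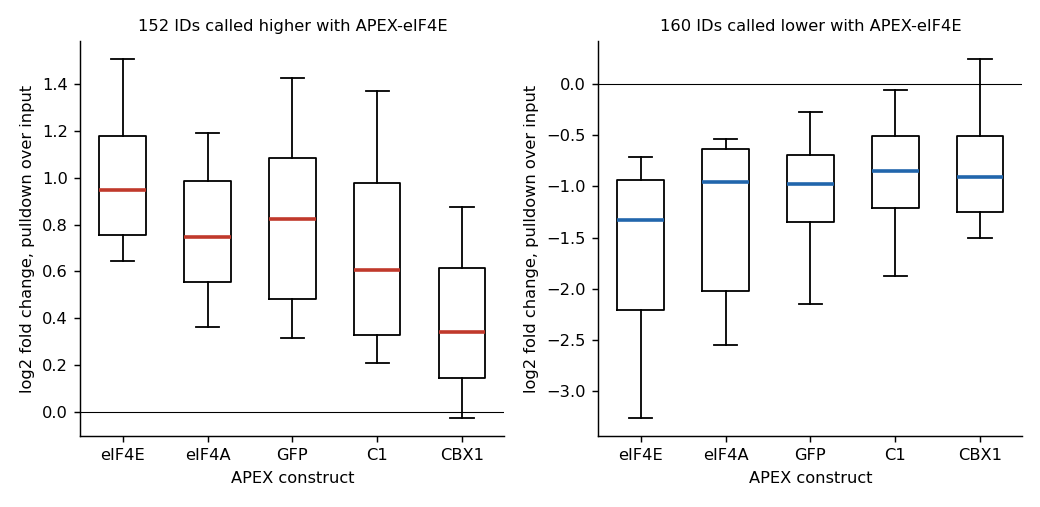
Boxes show the log2 fold change, pulldown over input, of the 152 IDs called higher (left) and the 160 called lower (right) with APEX-eIF4E, in each of the 5 constructs; lines are medians, boxes quartiles and whiskers reach the outermost IDs within the 10th and 90th percentiles. The higher IDs have medians of 0.82 with GFP and 0.75 with eIF4A but 0.34 with CBX1. The medians of the lower IDs lie between -0.98 and -0.85 in the other constructs.

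Read the other way, IDs picked in other constructs gave eIF4E values free of that choice. The 144 IDs called higher with eIF4A had a median log2 fold change of 0.74 in the eIF4E libraries, against 0.82 with GFP, 0.61 with C1 and 0.33 with CBX1, and 143 of them lay above 0 with eIF4E. The 127 IDs called lower with eIF4A had a median of -1.30 with eIF4E, against -1.0 with GFP, -0.91 with CBX1 and -0.84 with C1, and 126 lay below 0 with eIF4E. The 242 IDs called higher with GFP had medians of 0.73 with eIF4E and 0.70 with eIF4A, and the 260 called lower had -0.70 and -0.63. For the 199 IDs called higher with CBX1 the eIF4E median was 0.46. These medians are descriptions with no test.

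Of the 152 higher IDs, 17 were called in all 4 other constructs and 35 in none of them. Of the 160 lower IDs the numbers were 43 and 29. The same numbers over all tested IDs were not counted. No other construct had more than 3.56% of tested IDs called in 1 direction, so a call in none is the usual state. The 35 had a median log2 fold change of 0.98 with eIF4E and, uncalled, 0.57 with eIF4A and 0.38 with GFP. They rested on fewer counts, at a median input level of 26.1 CPM against 79.1 CPM for the 17. The 29 lower IDs had medians of -1.51, -0.59 and -0.41 in the same order, at 30.3 CPM in inputs against 154 CPM for the 43. Both the 35 and the 29 were picked for a call with eIF4E and no call elsewhere. Larger medians with eIF4E follow from that choice and do not show that these IDs are particular to eIF4E.

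The last comparison tested whether the eIF4E fold change differed from the fold change of GFP or of eIF4A. For both, 0 of 12427 IDs were called by edgeR (0% each), with smallest adjusted p of 0.368 and 0.99997. Unadjusted, 472 IDs had p under 0.05 against GFP (3.80%; 248 higher and 224 lower with eIF4E) and 251 against eIF4A (2.02%; 113 and 138). Both shares lay under what a threshold of 0.05 gives where no ID differs, so the number of such IDs is no evidence of differences. A share over all IDs cannot exclude a difference in some of them either. The median standard error of a log2 difference was 0.62 for both, so differences of a few fold were not detectable for a typical ID. Against GFP, DESeq2 called 15 IDs, all lower with eIF4E. Without a count filter edgeR called 16, also all lower. With library sizes instead of TMM there were 43 calls, each of them higher. Whether any ID was called thus depended on tool, filter and scaling, and the direction of calls on scaling. Against eIF4A, DESeq2 called 0 and library size 0. Each of the 16 fits that left out 1 of the libraries compared also gave 0.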

How the data were processed

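The authors deposited raw counts per versioned Ensembl gene ID. Per the submitters' processing notes, cutadapt, HISAT2 and featureCounts with GRCh38 were used; per the labels' protocols the kit was a directional one from NEB. The strand setting, versions and handling of multiply matching reads were not given in the sources used here. Groups and replicate numbers came from titles. One column name appears in the descriptions of a pair of samples and was read as the second unstressed eIF4A input. The stress table was not used.

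Counts of all 20 unstressed libraries (1419968 to 3276410 per library) were tested together with edgeR 4.0.16 in R 4.3.3: filterByExpr, TMM, robust quasi-likelihood F test (2-sided), a mean per group, and Benjamini-Hochberg adjustment over 12427 IDs. Standard errors were the fold change over the square root of F. CPM used TMM-scaled totals, and log2(CPM + 1) served for library plots. The step was tested on simulated counts. No molecular identifiers are stated, so reads may not be independent molecules.

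Replicate pairs exceeded counting noise (chi-square per ID 1.89 for inputs, 4.71 for pulldowns). Same-numbered eIF4E inputs and pulldowns deviated with a correlation of 0.05 over 2099 IDs, so numbers were not taken as pairs.

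The 28 gene lists, 5 marker lists and the naming rule could not be applied without symbols, and no sequence could be matched. The rule then gives the 2 largest called increases and 2 largest decreases without overlap and averaging at least 8 CPM in the 4 libraries. The comparison, lists and rules were chosen with earlier results of these data known. Alternatives were plain library size, each library left out, a fit with a replicate block, one of the compared libraries alone, no filter, no input correction, DESeq2 1.42.0 and, added after seeing the data, library size without the 10 highest IDs.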

Additional observations from a re-analysis of the deposited data

How the results depend on the processing

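The count of 312 called IDs was 301 with a replicate block and 314 with DESeq2. With library size without the 10 highest IDs it was 372 (68.8% higher), all 160 lower IDs stayed below 0 and 116 were called. The count was 332 of 34690 tested IDs without a count filter and 423 of 10325 with only the 4 libraries. It was 4525 with library size (4462 higher, 63 lower) and 99 to 401 with 1 library left out. Input-adjusted against GFP, the count of 0 became 43 with library size, 16 without a count filter (all lower), 15 with DESeq2 and 678 without input correction; against eIF4A it became 269 without input correction. All other alternatives gave 0 for both. With the replicate block 275 of the 312 were called again, 37 were lost and 26 others gained; of the 4 IDs given, ENSG00000204054.10 lost its call. Of alternatives with an adjusted p, ENSG00000245848.2 kept its call in 7 of 10 (log2 fold change 5.40 to 7.96), ENSG00000204054.10 in 5 of 9 (1.39 to 3.33; DESeq2 gave no adjusted p), ENSG00000200312.1 in 10 of 10 (-5.43 to -4.11) and ENSG00000200488.1 in 10 of 10 (-5.09 to -3.91). The cause of these shifts was not tested. Gene lists gave no value under any setting, for want of symbols. A fit without 1 of 2 replicates takes the lone library to vary like the other groups.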

Other observations

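Detection in only 1 fraction was uneven for eIF4E. With at least 10 counts over the 2 pulldowns and 0 in both inputs there were 116 IDs, the highest at 23 counts, and 1 ID showed the reverse, at 22 counts. For eIF4A the numbers were 84 and 0, and for GFP 25 and 15. Outside the 10 highest IDs, the eIF4E pulldowns together held 1963327 counts and the inputs 935946, the eIF4A pulldowns 2303800 and inputs 1038102, and the GFP pulldowns 1393924 and inputs 1424464. At an equal depth of 401935 counts outside the 10 highest IDs, the eIF4E inputs would hold 17420 and 17295 IDs and the pulldowns 16902 and 17637, so the groups overlapped. At an equal depth of 1486613 counts in all, the inputs would hold 17430 and 17013 IDs and the pulldowns 18020 and 19404, without overlap, so the order depended on whether the 10 highest IDs were counted in the depth.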
